A study of Mus musculus with 44 samples.

Results

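Wild-type mouse kidneys taken during the night, when the mice had food, were compared with wild-type kidneys taken during the day, when they had none. The night group held 4 RNA libraries, replicates A and B at zeitgeber time (ZT) 16 and at ZT20. The day group held 4 libraries, replicates A and B at ZT4 and at ZT8. Zeitgeber time counts hours from lights-on. These 8 libraries were all the wild-type libraries of those times among the 24 kidney RNA libraries of a series of 44 samples. All mice were of the 129SV strain, 8 to 12 weeks old, wild type (WT) at the Bmal1 gene, and kept on night-restricted feeding, and polyadenylated kidney RNA was sequenced. Knockout (KO) kidneys, labelled Bmal -/-, from mice of the same strain, age and feeding gave 8 libraries of the same 4 times, which are set beside the WT values. The night and day groups differed in light, food, activity and clock phase together, and these cannot be told apart. Nothing in the labels says how many animals a library holds, so p-values measure the spread between these libraries, which may be partly technical.

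The circadian clock is a transcriptional loop. CLOCK and BMAL1 (gene Arntl) switch on Per, Cry and REV-ERB genes, PER and CRY proteins then block CLOCK and BMAL1, and REV-ERB proteins compete with ROR proteins at Bmal1 and its relatives. In the kidney this loop works beside signals that follow food and activity, such as insulin, which keeps FoxO factors inactive after a meal, body temperature, and adrenal glucocorticoids, which in mice are highest around dusk. Tubule segments reabsorb filtered sodium, water, glucose and amino acids, and excretion of salt and water is known to follow the time of day.

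Expression was measured as TPM (transcript abundance corrected for length and scaled to the same total in every library), summed over the transcripts of each gene. TPM keeps no record of sequencing depth, so the depth is unknown and no counting interval can be given. Between 12398 and 12821 genes reached 1 TPM in each of the 8 libraries. Kidney identity was checked on marker sums. The 10 proximal tubule markers summed to between 4528 and 5095 TPM per library, and the adrenal genes Cyp11b1, Cyp11b2, Cyp21a1 and Th were below 0.1 TPM in all 8. Genes encoded in mitochondria took 41.2% ± 0.75 of TPM by day and 40.0% ± 0.27 at night (SD, n = 4; exact permutation test, two-sided, p = 0.0286, the smallest that 4 against 4 allows). One KO library, labelled ZT4 replicate A, had clock genes at WT levels, and values without it are given beside each difference between genotypes.

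Genes were tested where their TPM averaged 1 or more across the night and day libraries, which held for 12768. Of these, 318 (2.49%) were higher at night and 354 (2.77%) were lower at a Benjamini-Hochberg adjusted p under 0.05, together 672 genes (5.26%). At an unadjusted p under 0.05, 3119 genes passed. Differences are given as night minus day on the log2(TPM + 0.1) scale, which understates the change of genes with low levels. Most were small. The median size was 0.41 log2 units among the higher genes and 0.43 among the lower genes, and 24 and 20 genes reached 1 unit. The median over all genes tested was -0.01. Every one of the 318 and 354 genes had night libraries that did not overlap the day libraries, which was so for 16.8% of all genes tested. Rescaled to the total without mitochondrially encoded genes, the split was 243 higher and 474 lower. The counts rested on few libraries: leaving out 1 library at a time gave 40 to 246 higher genes and 47 to 284 lower genes, with the smallest counts when ZT8 replicate A was left out. Of 89 called genes examined singly, leaving out 1 library ended 21 calls (ZT4 replicate A) to 55 calls (ZT8 replicate A), and 32 genes kept the call in all 8 such fits. Calls that the fit without ZT8 replicate A ended are given with its adjusted p, as this was the library on which the most calls rested.

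**Figure D1:**
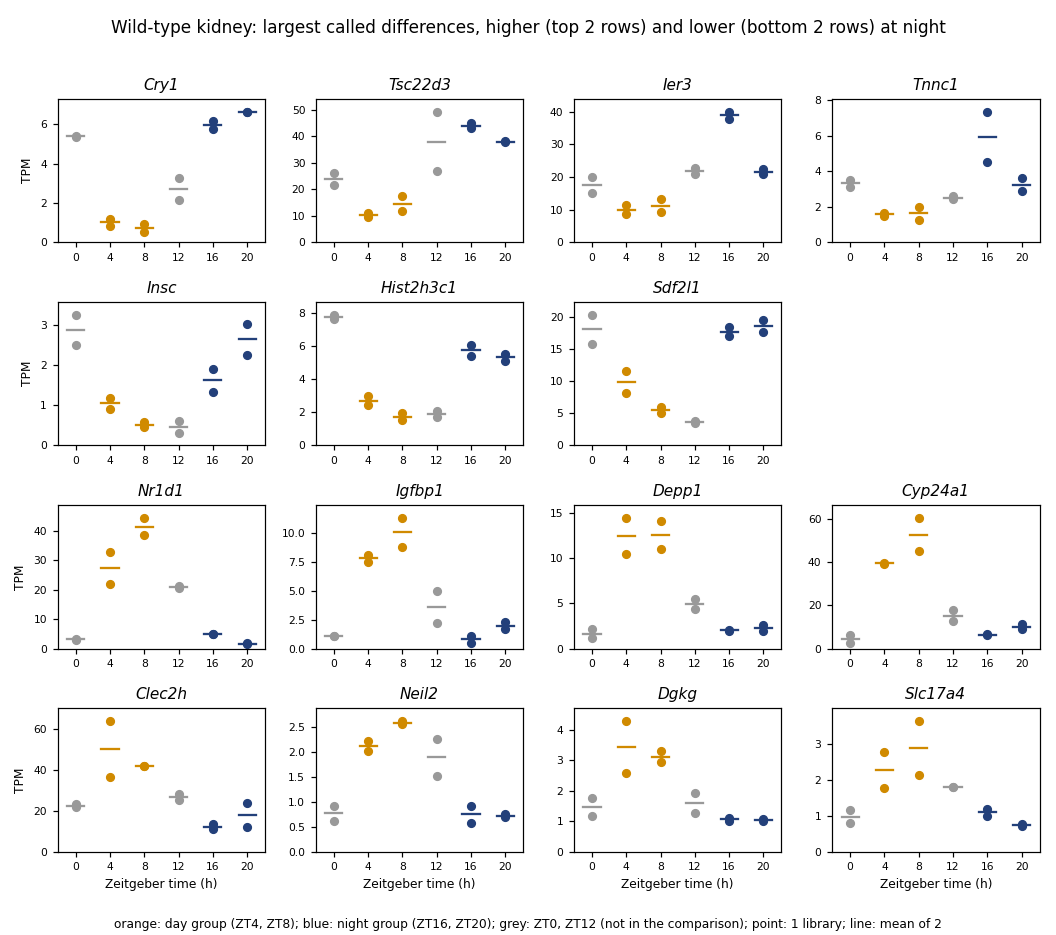
TPM (y axis, linear, from 0) against zeitgeber time in hours (x axis) in the 12 WT libraries for 15 protein-coding genes with the largest differences, 7 higher and 8 lower at night. Points are single libraries and short lines are means of 2. Orange marks the day group, blue the night group and grey the times outside the comparison. Cry1 lay between 0.551 and 1.20 TPM by day and between 5.75 and 6.64 at night, and Nr1d1 between 22.03 and 44.34 by day and between 1.42 and 5.06 at night.

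Among clock genes, Cry1 was higher and Nr1d1 was lower at night, while 15 tested members of the 4 clock lists were not called. Cry1 (ENSMUSG00000020038, GRCm38 chromosome 10, 85131700 to 85185064, minus strand) encodes a repressor of CLOCK and BMAL1. Its level was 1.20 and 0.845 TPM at ZT4, 0.551 and 0.931 at ZT8, 5.75 and 6.19 at ZT16, and 6.61 and 6.64 at ZT20 (replicates A and B). The night libraries were all above the day libraries, by 2.75 log2 units (SE 0.19, adjusted p = 0.000904), or 6.70-fold.

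Nr1d1 (chromosome 11, 98767932 to 98775333, minus strand) encodes the repressor REV-ERBα and had the largest fall among the genes called lower. Its level was 22.03 and 32.95 TPM at ZT4, 44.3 and 38.4 at ZT8, 4.79 and 5.06 at ZT16, and 1.42 and 1.93 at ZT20. No night library overlapped the day range, and the difference was -3.49 (SE 0.45, adjusted p = 0.0148). Without ZT8 replicate A the adjusted p of Nr1d1 was 0.0521. Cry1 kept its call without any one of the 8 libraries.

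The promoter of Cry1 in the RefSeq table (GRCm38.p6) is shown because Cry1 had the largest rise among the named protein-coding genes and its window holds an E-box, CACGTG, the element that CLOCK and BMAL1 bind. It is chr10:85185055-85185214 on the minus strand, the 160 bases before the RefSeq start, with the E-box in capitals.
Cry1: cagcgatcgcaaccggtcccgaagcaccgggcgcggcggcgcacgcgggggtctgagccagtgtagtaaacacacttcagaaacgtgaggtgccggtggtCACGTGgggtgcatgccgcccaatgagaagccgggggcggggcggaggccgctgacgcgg
E-boxes, searched on both strands in windows of 300 bases (250 before and 50 after a start), were present in 10.27% of 331 windows of genes higher at night, 10.84% of 369 windows of genes lower at night and 9.79% of 12224 windows of all tested genes in the table. The table held 9520 of the tested genes and 539 of the called ones. Other elements searched were in few windows of tested genes: the D-boxes TTATGTAA in 0.56% and TTACGTAA in 0.18%, the REV-ERB and ROR element TAGGTCA in 1.97%, the sterol element TCACCCCAC in 0.61% and the cAMP element TGACGTCA in 2.84%. A match describes the letters of a window and is not a binding site or a cause.

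Several other clock genes differed between the 2 times of a group. Arntl stood at 6.16 and 4.72 TPM at ZT4 but 0.690 and 0.527 at ZT8, and at 1.74 and 2.03 at ZT16 but 9.38 and 8.24 at ZT20. Both groups held low and high libraries. Over the pairs of times 12 h apart, its difference was -1.47 for ZT16 minus ZT4 (adjusted p = 0.0227) and 3.66 for ZT20 minus ZT8 (adjusted p = 0.00164). Npas2, the relative of Clock, had the same reversal, with -2.79 (adjusted p = 0.0272) and 2.29 (adjusted p = 0.0254). Per3 and Ciart, both repressors, reversed the other way: Per3 by 1.60 (adjusted p = 0.0203) and -1.99 (adjusted p = 0.00996), and Ciart by 1.44 (adjusted p = 0.0286) and -3.02 (adjusted p = 0.00416).

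Dbp, a PAR bZIP activator of output genes, stood at 5.88 and 11.1 TPM at ZT4, 56.1 and 65.2 at ZT8, 16.9 and 13.2 at ZT16, and 2.27 and 2.36 at ZT20. Its groups overlapped and the night-day difference of -1.89 (SE 1.06) had an adjusted p of 0.322. Nfil3, which encodes a repressor acting on the same sites as DBP, was at 4.03, 1.95, 0.791 and 0.634 TPM by day and at 4.45, 3.68, 11.3 and 12.1 at night (difference 2.19, SE 0.66, adjusted p = 0.0979). With time as a factor of 4 levels, which takes the spread only between replicates, Nfil3, Nr1d2, Per1, Dbp, Arntl and Ciart were called as well.

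**Figure D2:**
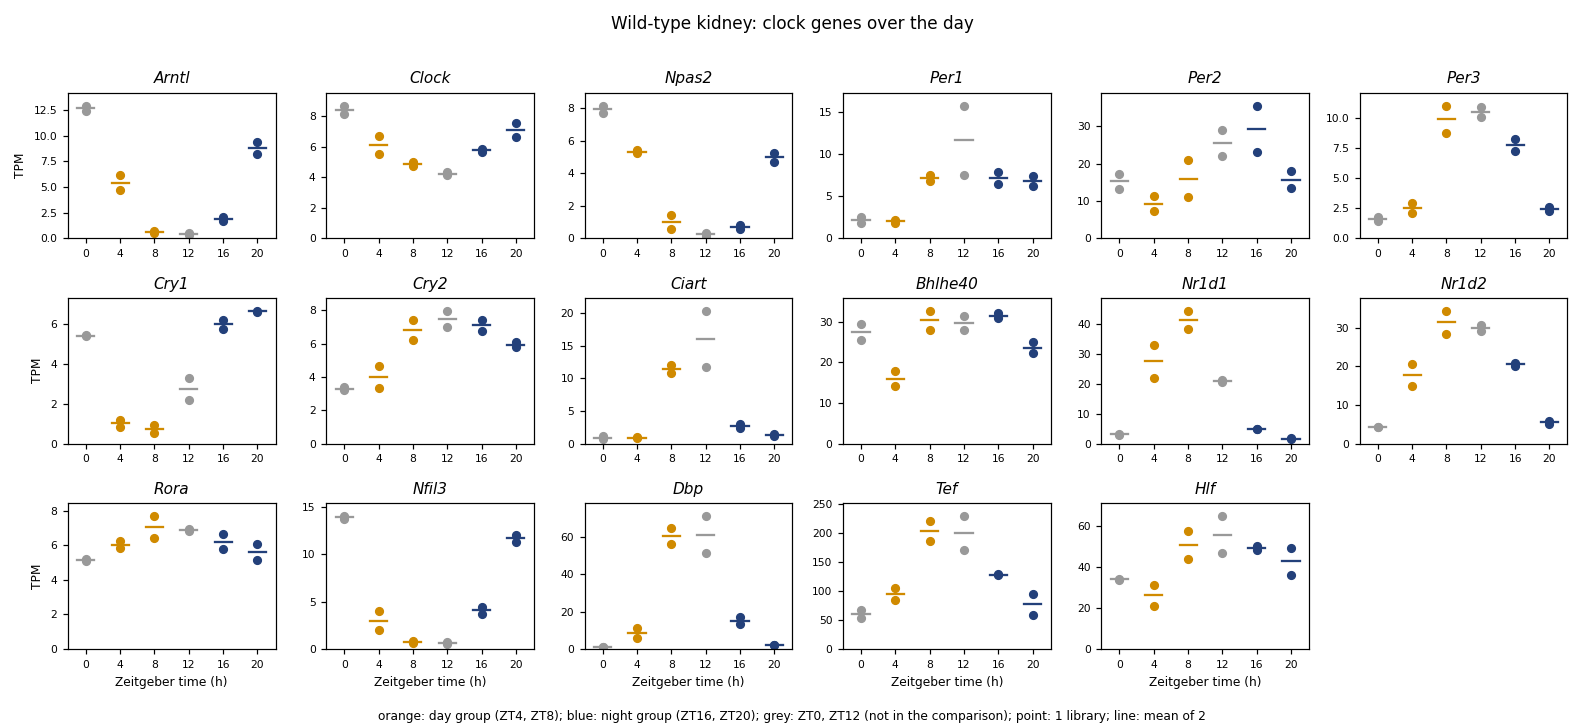
TPM (y axis, from 0) against zeitgeber time in hours (x axis) for 17 clock genes in the 12 WT libraries, with points for libraries, lines for means of 2, orange for the day group, blue for the night group and grey for ZT0 and ZT12. Arntl, Npas2 and Nfil3 are highest at ZT0 and Dbp is at 51.4 to 71.2 TPM at ZT12, times that lie outside both groups.

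Over all genes, 160 (1.25%) differed between ZT16 and ZT4, 83 higher and 77 lower at ZT16, and 839 (6.57%) differed between ZT20 and ZT8, 369 higher and 470 lower at ZT20. The differences of these 2 contrasts come from separate libraries. Their p-values do not, as both use the same spread per gene from 1 fit of all 8 libraries. The 2 lists of calls are therefore not independent. They shared 80 genes, 50% of the first list and 9.5% of the second, and 70 of the 80 had the same sign. All 318 and 354 genes of the night-day comparison had the same sign at both pairs. This follows from their night libraries not overlapping their day libraries, so it adds no support.

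**Figure D3:**
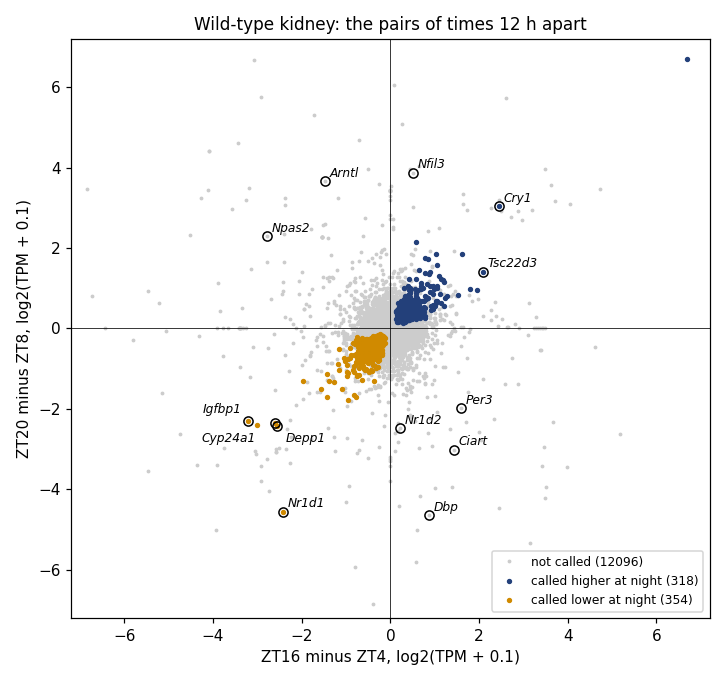
Log2 difference of ZT16 minus ZT4 (x axis) against ZT20 minus ZT8 (y axis) for the 12768 tested genes, each point 1 gene. Genes called higher (318, blue) or lower (354, orange) at night lie in the upper right and lower left, while Arntl and Npas2 lie in the upper left and Dbp, Per3, Ciart and Nr1d2 in the lower right.

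Genes that respond to fasting and to low insulin were among the largest falls at night. Depp1 (chromosome 6, 116650609 to 116652794, plus strand), a known FoxO target, was at 10.5 and 14.5 TPM at ZT4, 11.03 and 14.19 at ZT8, 2.04 and 1.97 at ZT16, and 1.89 and 2.62 at ZT20. Every night library was below every day library, with a difference of -2.50 (SE 0.14, adjusted p = 0.000307), 5.65-fold higher by day. Igfbp1 (chromosome 11, 7197782 to 7202546, plus strand), which encodes a secreted binding protein for insulin-like growth factors that insulin suppresses, was at 8.12, 7.51, 11.3 and 8.80 TPM by day and 0.505, 1.12, 1.68 and 2.28 at night (ZT4, ZT8, ZT16 and ZT20, replicates A then B). The ranges were separate (-2.75, SE 0.39, adjusted p = 0.0152). At ZT0 Igfbp1 was at 1.12 and 1.07 TPM, and at ZT12 it was at 4.99 and 2.17.

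Of the 15 tested insulin and FoxO feeding-response genes, 3 were lower at night, none was higher, and the median difference was -0.23. Txnip, an arrestin-family protein that restrains glucose uptake, fell by 0.95 log2 units (SE 0.10, adjusted p = 0.00618), from 169 to 194 TPM by day to 79.6 to 111 at night. Igf1r, the receptor for insulin-like growth factor, fell by 0.577 (SE 0.10, adjusted p = 0.0208). Irs2, Foxo1 and Foxo3, the adaptor and factors of the pathway, had differences of -0.296, 0.037 and 0.023 and were not called. Of the 15 differences, 11 were negative and 4 positive. The positive ones included the gluconeogenic genes Pck1, the highest of the list at 0.74, and G6pc, neither of them called. Depp1 was not a member of this list. When ZT8 replicate A was left out, the adjusted p was 0.0531 for Igfbp1 and 0.0589 for Igf1r.

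Genes of autophagy, the lysosomal recycling of cell contents that rises in fasting, gave 3 lower and 1 higher of 11 tested, with a median of -0.07. Gabarapl1, which encodes an autophagosome protein, was at 355, 400, 367 and 373 TPM by day and 240, 254, 259 and 268 at night (-0.549, SE 0.05, adjusted p = 0.00445). The groups did not overlap. Wipi1, which acts at the forming membrane, and Ulk1, the initiating kinase, differed by -0.777 (adjusted p = 0.0110) and -0.382 (adjusted p = 0.0310). Tfeb, the transcription factor of lysosomal genes, differed in the opposite direction by 0.398 (adjusted p = 0.0208). With ZT8 replicate A removed, the adjusted p was 0.0872 for Ulk1 and 0.0574 for Tfeb.

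The promoter of Txnip is shown because it holds both the FoxO element GTAAACA and a glucocorticoid element, GNACANNNTGTNC, where N is any base. It is chr3:96557765-96557956 (GRCm38.p6, plus strand), the 192 bases before the RefSeq start, with both elements in capitals.
Txnip: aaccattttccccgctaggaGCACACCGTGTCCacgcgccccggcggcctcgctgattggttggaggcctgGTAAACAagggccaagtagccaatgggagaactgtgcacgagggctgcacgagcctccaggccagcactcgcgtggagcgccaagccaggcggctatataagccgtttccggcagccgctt
The FoxO element was present in 4.61% of windows of genes lower at night, 2.42% of windows of genes higher at night and 2.69% of all windows.

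Among chaperone genes, calls were made in 1 direction. All 18 tested heat shock proteins and co-chaperones had a positive difference, 8 of them were called higher and none lower, and the median was 0.60 against -0.01 for all genes. Stip1, the co-chaperone that links HSP70 to HSP90, was at 32.6, 30.1, 25.3 and 24.3 TPM by day and 50.4, 44.2, 39.6 and 44.5 at night (0.674, SE 0.11, adjusted p = 0.0172). Chordc1, an HSP90 partner, was at 15.7, 14.8, 9.63 and 11.8 TPM by day and 31.8, 27.8, 21.9 and 22.4 at night (1.001, SE 0.18, adjusted p = 0.0241). For both genes the groups did not overlap. Fkbp4, an HSP90-bound chaperone of steroid receptors, differed by 0.442 (SE 0.08, adjusted p = 0.0242).

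Hsph1, named after its values were seen because its promoter holds the heat shock element, differed by 1.03 (SE 0.22, adjusted p = 0.0380, and 0.0587 with the replicate letter as a block). The stretches of 30 bases that hold the element in Hsph1 and Chordc1 are shown with it in capitals. The element was searched as TTCNNGAANNTTC on both strands, the repeated unit that heat shock factor binds. The stretches are chr5:149636280-149636309 on the minus strand and chr9:18292259-18292288 on the plus strand (GRCm38.p6), and in Chordc1 3 overlapping matches run together.
Hsph1: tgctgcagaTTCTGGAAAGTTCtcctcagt
Chordc1: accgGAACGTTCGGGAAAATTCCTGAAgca
The element was present in 26.32% of the 19 windows of the 14 list genes in the table, against 0.50% of all windows, 1.51% of windows of genes higher at night and 0.54% of those lower. Hspd1 (0.101, adjusted p = 0.310) and Hspe1 (0.259, adjusted p = 0.0757) of this list also held it and were not called. As the list was chosen by known function, its share of windows describes the list and not its calls. In the fit lacking ZT8 replicate A, the adjusted p was 0.0543 for Stip1, 0.0543 for Chordc1, 0.0721 for Fkbp4 and 0.0953 for Hsph1.

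Of 24 tested genes of the endoplasmic reticulum chaperones and unfolded protein response, 9 were higher at night and none was lower, with a median of 0.33 and 23 positive differences. Sdf2l1, which encodes a small partner of the chaperone BiP, was at 11.6 and 8.17 TPM at ZT4, 5.97 and 5.12 at ZT8, 18.3 and 17.0 at ZT16, and 17.6 and 19.5 at ZT20 (1.29, SE 0.23, adjusted p = 0.0246). All night libraries were above all day libraries. Manf, a secreted protein of the stressed reticulum, was at 64.5, 53.6, 45.7 and 45.4 TPM by day and 147, 126, 96.2 and 108 at night (1.18, SE 0.16, adjusted p = 0.0132). Hyou1, a large chaperone of the lumen, and Xbp1, the factor that drives this response, differed by 0.974 (adjusted p = 0.0132) and 0.642 (adjusted p = 0.0150). At ZT12, Sdf2l1 was at 3.87 and 3.48 TPM, below all of the day libraries, and at ZT0 it was at 20.3 and 15.8.

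Promoters are shown for Hspa5, which encodes BiP, Creld2 and Syvn1, the called members whose windows hold the endoplasmic reticulum stress element, CCAAT and CCACG 9 bases apart (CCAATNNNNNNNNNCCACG, both strands, in capitals). They were picked after their values were seen. All are the 160 bases before the RefSeq start on the plus strand of GRCm38.p6: chr2:34771930-34772089, chr15:88819486-88819645 and chr19:6046416-6046575.
Hspa5: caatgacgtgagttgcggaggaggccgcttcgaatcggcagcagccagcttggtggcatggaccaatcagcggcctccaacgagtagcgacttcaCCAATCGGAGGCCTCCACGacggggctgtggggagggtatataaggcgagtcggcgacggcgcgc
Creld2: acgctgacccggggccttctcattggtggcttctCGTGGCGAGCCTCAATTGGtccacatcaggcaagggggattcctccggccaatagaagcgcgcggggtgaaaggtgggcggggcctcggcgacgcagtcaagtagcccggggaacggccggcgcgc
Syvn1: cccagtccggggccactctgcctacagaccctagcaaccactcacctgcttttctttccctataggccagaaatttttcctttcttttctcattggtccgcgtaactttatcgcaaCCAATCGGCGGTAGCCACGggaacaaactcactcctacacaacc
Hspa5 differed by 1.11 (SE 0.22, adjusted p = 0.0315, and 0.0505 with the replicate block), Creld2 by 1.19 (SE 0.18, adjusted p = 0.0163) and Syvn1, a ligase of reticulum quality control, by 0.544 (SE 0.08, adjusted p = 0.0160). The element was in 38.1% of the 21 windows of this list and in 0.15% of all windows. It was in 0.91% of windows of genes higher at night and 0.27% of those lower. Calr, Canx, Dnajc3, Hsp90b1 and Pdia6 of this list also held it and were not called. The list was chosen by known function, so its share of windows describes the list and not the night-day calls. Leaving out ZT8 replicate A gave an adjusted p of 0.0742 for Hspa5, 0.0536 for Creld2, 0.0536 for Syvn1 and 0.0728 for Sdf2l1, while Manf, Hyou1 and Xbp1 kept their calls without any one library.

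Cirbp, which encodes a cold-induced RNA-binding protein, went the other way. It was at 44.9, 52.8, 66.8 and 58.6 TPM by day and 23.96, 26.5, 27.2 and 30.5 at night (-1.03, SE 0.12, adjusted p = 0.00947). Night and day libraries were separate. Rbm3, the other member of that pair, differed by -0.06 (adjusted p = 0.873).

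**Figure D4:**
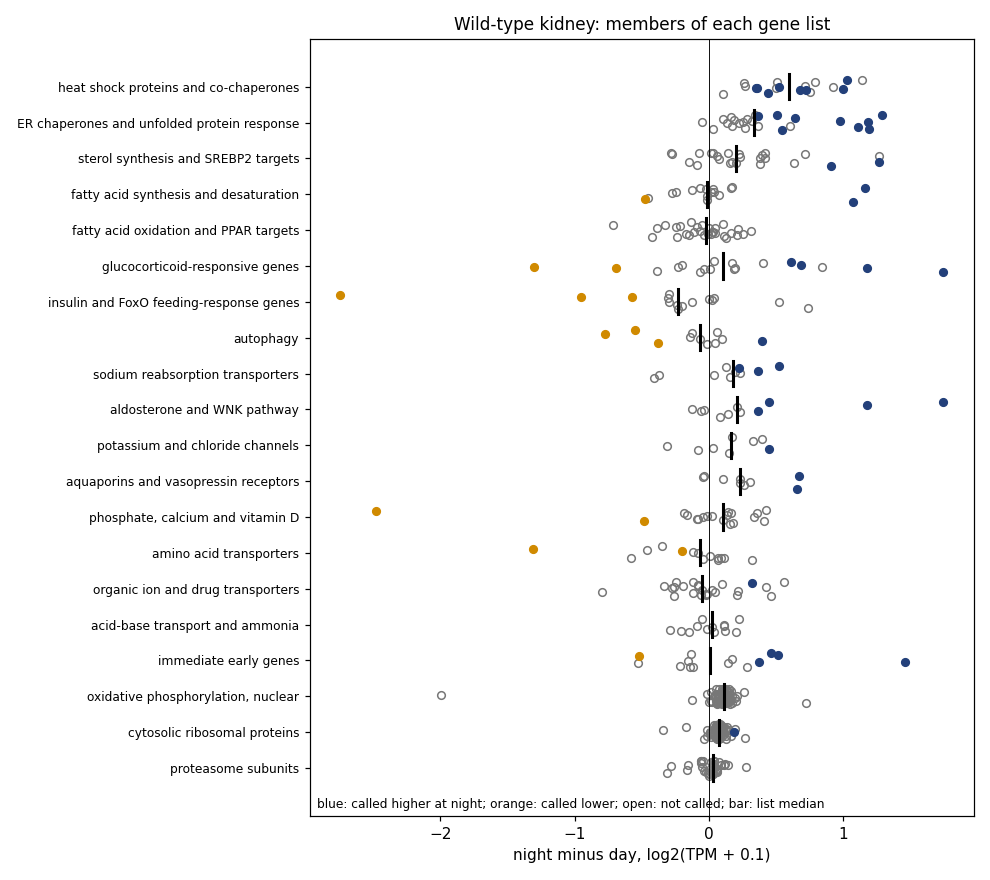
Night minus day difference in log2(TPM + 0.1) (x axis) for the tested members of 20 gene lists (y axis). Filled points were called (blue higher, orange lower), open points were not, and black bars are list medians. All heat shock points lie right of 0 with a median of 0.60, and the insulin and FoxO list has a median of -0.23.

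Lipid synthesis genes gave calls in both directions. Srebf1, the factor that turns on fatty acid synthesis after feeding, was at 15.1, 20.4, 14.3 and 15.5 TPM by day and 30.7, 35.3, 39.2 and 40.4 at night (1.16, SE 0.13, adjusted p = 0.00655). Scd2, a fatty acid desaturase, was at 17.6, 17.7, 12.8 and 14.3 TPM by day and 28.6, 31.9, 35.2 and 34.9 at night (1.07, SE 0.12, adjusted p = 0.00684). No night library overlapped the day range for either gene. The synthesis enzymes Fasn (-0.015, adjusted p = 0.981) and Acly (0.016, adjusted p = 0.913) were not called, and Gpam, an acyltransferase of triglyceride synthesis, was lower (-0.475, adjusted p = 0.0277). In all, 2 of 17 tested genes of this list were higher and 1 lower, with a median of -0.02.

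In the sterol synthesis list 2 of 25 tested genes were higher, none lower, and the median was 0.20. At ZT20 against ZT8, 11 of the 25 genes were called, where 6.57% of all genes tested were. At ZT16 against ZT4 none was, which is near the 1.25% of all genes tested. Of 30 genes of fatty acid oxidation and PPAR targets, none was called, 2 had an unadjusted p under 0.05, and the median was -0.02. Without ZT8 replicate A the adjusted p was 0.0791 for Gpam.

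Glucocorticoid-responsive genes split. Of 18 tested, 4 were higher, 2 were lower and the median was 0.10. Tsc22d3 (chromosome X, 140539528 to 140600659, minus strand), which encodes the anti-inflammatory protein GILZ, was at 11.1, 9.60, 11.7 and 17.4 TPM by day and 45.0, 43.1, 38.3 and 37.8 at night (1.75, SE 0.17, adjusted p = 0.00446). Sgk1 (chromosome 10, 21882184 to 21999903, plus strand), a kinase that raises sodium channel activity, was at 25.3, 20.01, 19.8 and 25.2 TPM by day and 50.9, 48.0, 45.4 and 60.6 at night (1.18, SE 0.12, adjusted p = 0.00457). The night libraries of both genes were all above the day libraries, and both kept their calls without any one library. In the genotype by time fit on 24 libraries the adjusted p of Sgk1 was 0.0646. Ddit4, an inhibitor of mTOR signalling, differed by 0.612 (SE 0.13, adjusted p = 0.0335), and Cebpd, a transcription factor named after its values were seen, by 0.686 (SE 0.15, adjusted p = 0.0423, and 0.0585 with the replicate block).

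The metallothioneins Mt1 and Mt2, metal-binding proteins that glucocorticoids are known to raise, were lower at night. Mt2 was at 47.5, 57.2, 85.0 and 81.4 TPM by day and 26.6, 22.1, 23.7 and 36.0 at night (-1.30, SE 0.22, adjusted p = 0.0239). Mt1 lay between 121 and 171 TPM by day and between 78.1 and 107 at night (-0.693, SE 0.14, adjusted p = 0.0332, and 0.0519 with the block). For both genes the night libraries were all below the day libraries. Fkbp5 (0.405, adjusted p = 0.201) and Klf9 (-0.234, adjusted p = 0.268), other known targets of the receptor, were not called. When ZT8 replicate A was left out, the adjusted p was 0.0851 for Ddit4, 0.112 for Cebpd, 0.0642 for Mt2 and 0.0828 for Mt1.

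The Sgk1 window is shown because it holds the glucocorticoid element (capitals) and Sgk1 is in both the glucocorticoid and the aldosterone list. It is chr10:21993682-21993889 (GRCm38.p6, plus strand), the stretch just before a RefSeq start of the gene.
Sgk1: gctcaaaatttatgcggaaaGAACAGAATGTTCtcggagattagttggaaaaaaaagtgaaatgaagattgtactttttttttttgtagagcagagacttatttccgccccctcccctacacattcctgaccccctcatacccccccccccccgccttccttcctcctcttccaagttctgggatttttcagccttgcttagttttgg
The element was in 14.29% of the 28 windows of the 16 glucocorticoid list genes in the table, namely those of Fam107a, Mt1 and Sgk1, and in 0.36% of all windows. Mt1 had the element and was lower at night, while Sgk1 had it and was higher.

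In the aldosterone and WNK pathway list 4 of 11 tested genes were higher, none lower, and the median was 0.21. Beside Sgk1 and Tsc22d3, Hsd11b2, the enzyme that keeps glucocorticoids from the mineralocorticoid receptor, was at 61.7, 49.2, 53.5 and 56.4 TPM by day and 76.3, 73.1, 83.1 and 68.4 at night (0.447, SE 0.08, adjusted p = 0.0258). The ranges were separate. Stk39, the kinase SPAK that activates sodium-chloride cotransport, was named after its values were seen and differed by 0.361 (SE 0.08, adjusted p = 0.0396, and 0.0580 with the block).

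Of 10 sodium reabsorption transporters, 3 were higher, none lower, the median was 0.18, and 9 had an unadjusted p under 0.05. Scnn1g, the γ subunit of the epithelial sodium channel, was at 9.70, 9.72, 9.82 and 9.95 TPM by day and 12.3, 12.2, 13.9 and 12.4 at night (0.368, SE 0.06, adjusted p = 0.0152). Scnn1a, its α subunit, was at 26.5, 20.4, 28.1 and 24.2 TPM by day and 35.1, 32.1, 41.1 and 33.8 at night (0.520, SE 0.11, adjusted p = 0.0371). Neither gene had overlapping groups. The β subunit Scnn1b had a difference of 0.196 (adjusted p = 0.111). Slc12a1, the sodium-potassium-chloride cotransporter of the thick ascending limb, differed by 0.224 (SE 0.05, adjusted p = 0.0478, and 0.0650 with the block). The distal cotransporter Slc12a3 (0.040, adjusted p = 0.823) and the proximal exchanger Slc9a3 (-0.412, adjusted p = 0.180) were not called.

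Of 8 potassium and chloride channels, 1 was higher. That was Kcnj1, the ROMK channel that recycles potassium in the thick limb and secretes it in the collecting duct. Its levels were 53.3, 53.7, 47.0 and 46.3 TPM by day and 67.0, 66.2, 69.1 and 70.4 at night (0.448, SE 0.06, adjusted p = 0.0132). The groups were separate, and the call held without any one library. With ZT8 replicate A removed, the adjusted p was 0.0745 for Hsd11b2, 0.106 for Stk39, 0.0521 for Scnn1g, 0.0593 for Scnn1a and 0.0745 for Slc12a1.

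For water transport, 2 of 9 tested aquaporins and vasopressin receptors were higher, none lower, with a median of 0.23. Aqp2 (chromosome 15, 99579055 to 99584547, plus strand), the water channel that vasopressin brings to the surface of principal cells, was at 106, 79.5, 82.9 and 95.4 TPM by day and 153, 140, 135 and 148 at night (0.669, SE 0.09, adjusted p = 0.0137). All night libraries were above all day libraries, but outside the comparison the 2 ZT12 libraries were far apart, at 99.2 and 169 TPM. Avpr2, the vasopressin receptor, was at 9.35, 8.82, 5.85 and 6.87 TPM by day and 10.6, 12.1, 13.9 and 11.6 at night (0.654, SE 0.15, adjusted p = 0.0481, 0.0696 with the block and 0.0928 without ZT8 replicate A). Slc5a3, which imports the osmolyte myo-inositol, was the 1 of 7 osmolyte and urea genes called (0.601, SE 0.08, adjusted p = 0.0132). In the genotype by time fit on 24 libraries both calls were lost, with an adjusted p of 0.183 for Aqp2 and 0.146 for Slc5a3. Nfat5, the factor that drives osmolyte genes, had a difference of -0.129 (adjusted p = 0.509).

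Sums of cell type markers are set beside these genes. The summed TPM of 5 thick ascending limb markers was 1392 to 1649 by day and 1810 to 2144 at night, and 3 of the 5 were called (Slc12a1, Kcnj1 and Umod). The sum of 5 principal cell markers was 156 to 194 by day and 233 to 252 at night, and 3 of the 5 were called (Aqp2, Avpr2 and Scnn1g), while Fxyd4 (-0.190, adjusted p = 0.343) and Aqp3 (0.102, adjusted p = 0.667) were not. Umod alone made up most of the thick ascending limb sum (920 to 1097 TPM by day, 1236 to 1469 at night). Aqp2 alone made up much of the principal cell sum (79.47 to 106.2 TPM by day, 135.1 to 152.5 at night). For each sum the exact permutation test gave p = 0.0286 and 0.214 after Benjamini-Hochberg adjustment over 15 cell types. Most of the principal cell markers are themselves transport genes, so that sum is not independent of the results above. The thick ascending limb sum includes Slc12a1 and Kcnj1 but rests mostly on Umod, which encodes a secreted protein. The part of cell number in the results above was not tested. In bulk tissue more cells of a type and more RNA per cell cannot be told apart.

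Vitamin D and phosphate genes included 2 falls among 19 tested, no rise, and a median of 0.11. Cyp24a1 (chromosome 2, 170482708 to 170497145, minus strand), the enzyme that inactivates vitamin D, was at 39.6, 39.3, 60.5 and 45.2 TPM by day and 6.71, 6.07, 9.08 and 11.3 at night (-2.48, SE 0.22, adjusted p = 0.00425), 5.60-fold higher by day. The groups did not overlap. Cyp27b1, the enzyme that activates vitamin D, had a difference of -0.187 (adjusted p = 0.841), and Vdr, the receptor, -0.162 (adjusted p = 0.210). Slc20a2, a sodium-phosphate transporter, differed by -0.481 (SE 0.08, adjusted p = 0.0209, and 0.0642 without ZT8 replicate A), while Slc34a1, the main proximal phosphate transporter, differed by -0.079 (adjusted p = 0.476).

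Of 14 amino acid transporters, 2 were lower, none higher, and the median was -0.07. Slc6a19 (chromosome 13, 73679745 to 73704865, minus strand), the proximal transporter of neutral amino acids, was at 106, 119, 139 and 139 TPM by day and 44.3, 47.9, 50.3 and 59.8 at night (-1.31, SE 0.12, adjusted p = 0.00326). It was 2.48-fold higher by day and held its call without any one library. Slc1a1, a glutamate transporter, differed by -0.201 (adjusted p = 0.0476, 0.0588 with the block and 0.123 without ZT8 replicate A).

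Among 12 genes of glucose reabsorption and gluconeogenesis 1 was lower. Slc2a2, which encodes the basolateral glucose transporter GLUT2, was at 50.6, 62.2, 61.9 and 71.7 TPM by day and 37.7, 38.8, 41.7 and 46.5 at night (-0.573, SE 0.11, adjusted p = 0.0275, and 0.0768 without ZT8 replicate A). The luminal transporter Slc5a2 (-0.075, adjusted p = 0.564) and the gluconeogenic enzymes Pck1 (0.739, adjusted p = 0.247) and G6pc (0.520, adjusted p = 0.128) were not called.

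In the renin-angiotensin list, 2 of 9 tested genes were lower, the receptors Mas1 (-0.952, SE 0.15, adjusted p = 0.0168) and Agtr1a (-0.251, SE 0.06, adjusted p = 0.0455, and 0.0510 with the block). Mas1 was at 0.658 to 0.915 TPM at night and 1.35 to 1.89 by day, but at ZT12 its replicates were at 0.812 and 3.17. Of 14 immediate early genes, which respond fast to stimuli, 4 were higher and 1 lower. Ier3 was at 8.73, 11.4, 9.19 and 13.3 TPM by day and 37.7, 39.9, 22.4 and 20.9 at night (1.46, SE 0.25, adjusted p = 0.0234), so that ZT16 was above ZT20. Klf2, Jun and, named after its values were seen, Klf4 were higher by 0.512 (adjusted p = 0.0160), 0.460 (adjusted p = 0.0286) and 0.370 (adjusted p = 0.0465), and Junb was lower (-0.523, adjusted p = 0.0395). With the block the adjusted p was 0.0565 for both Klf4 and Junb.

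In metabolic lists, Alas1, the first enzyme of heme synthesis, was at 40.2, 61.5, 53.0 and 60.0 TPM by day and 152, 134, 87.9 and 113 at night (1.17, SE 0.19, adjusted p = 0.0211), the 1 of 8 heme genes called. Glul, glutamine synthetase, and Amd1, an enzyme of polyamine synthesis, were the 2 of 11 called in their list, with differences of 0.784 (adjusted p = 0.0152) and 0.578 (adjusted p = 0.0191). Glul was at 127, 148, 138 and 176 TPM by day and 282, 272, 212 and 249 at night. Hmox1, a heme-degrading enzyme, was the 1 of 13 NRF2 antioxidant targets called (0.589, adjusted p = 0.0438). Hmox1 kept this call in 7 of 12 settings, and its adjusted p was 0.539 in the genotype by time fit on 24 libraries. Atf4 was the 1 of 12 called in the amino acid response list (0.403, adjusted p = 0.0352, and 0.0533 with the block). Among 14 hypoxia-responsive genes the oxygen sensor Egln3 (-0.597, adjusted p = 0.0112) and Pfkfb4, a regulator of glycolysis (-0.328, adjusted p = 0.0454, and 0.0565 with the block), were lower.

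In the fit lacking ZT8 replicate A, the adjusted p was 0.0543 for Mas1, 0.101 for Agtr1a, 0.0728 for Ier3, 0.0531 for Klf2, 0.0531 for Jun, 0.0856 for Klf4 and 0.0953 for Junb. It was 0.0643 for Alas1, 0.0531 for Glul, 0.0523 for Amd1, 0.114 for Hmox1, 0.0933 for Atf4 and 0.116 for Pfkfb4.

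Several other lists gave few calls or none. Over all 12768 genes tested, 5.26% were called and 3119 had an unadjusted p under 0.05. In the smaller lists, a lack of calls is near that share. Of 77 cytosolic ribosomal protein genes 1 was higher, Rpl7l1 (0.189, adjusted p = 0.0353, and 0.0505 with the block), and 72 had positive differences with a median of 0.07. Of 20 ribosome biogenesis genes 2 were higher, Wdr12 (0.279, adjusted p = 0.0332) and Nolc1 (0.267, adjusted p = 0.0424, and 0.0606 with the block). Of 78 nuclear genes of oxidative phosphorylation none was called by limma, 24 had an unadjusted p under 0.05 and the median was 0.11. No call was made among 37 proteasome genes, 15 NAD synthesis and sirtuin genes, 13 acid-base genes or 10 monocarboxylate transporters, where 4, 7, 1 and 3 had an unadjusted p under 0.05. None was called among 13 mitochondrially encoded genes, 7 tubular injury markers, 10 interferon-stimulated genes or 9 collagen and matrix genes, where 2, 1, 2 and 1 did. Leaving out ZT8 replicate A gave an adjusted p of 0.0953 for Rpl7l1, 0.0856 for Wdr12 and 0.107 for Nolc1.

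Single genes outside the main groups completed the lists. Of 16 cell cycle genes 1 was higher, Gadd45g, a stress-induced inhibitor (0.962, adjusted p = 0.0277). Of 6 genes of the PAF1 elongation complex 1 was higher, Cdc73 (0.370, adjusted p = 0.0363), and of 25 organic ion and drug transporters 1 was higher, Slc22a13, a urate and nicotinate transporter (0.320, adjusted p = 0.0343). Of 33 cytochrome P450 genes 3 were lower, namely Cyp24a1, Cyp4a32 (-1.24, adjusted p = 0.0481) and Cyp2f2 (-0.558, adjusted p = 0.0498). Cyp4a32 has near-identical neighbours among which reads may be split, so its value is uncertain. With the block the adjusted p was 0.0682 for Cyp4a32 and 0.0645 for Cyp2f2. Without ZT8 replicate A it was 0.0728 for Gadd45g, 0.0766 for Cdc73, 0.0936 for Slc22a13, 0.0903 for Cyp4a32 and 0.117 for Cyp2f2.

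The genes with the smallest p-values were not always those with the largest differences. Ggct, the enzyme γ-glutamylcyclotransferase of glutathione turnover, was at 35.2, 33.8, 36.3 and 32.3 TPM by day and 21.9, 21.8, 22.3 and 20.95 at night (-0.658, SE 0.05, adjusted p = 0.00120). Tmem207, a membrane protein, was at 6.81, 6.55, 6.71 and 6.12 TPM by day and 11.7, 11.8, 11.01 and 10.3 at night (0.763, SE 0.06, adjusted p = 0.00258). Within each group these libraries lay close together, but the call of Ggct was lost in the genotype by time fit on 24 libraries (adjusted p = 0.0694). Cntfr, a cytokine receptor subunit, Lonrf3, a RING finger protein, and the kinase Pak6 were higher by 0.983 (adjusted p = 0.00326), 1.20 (adjusted p = 0.00446) and 0.689 (adjusted p = 0.00555). Abtb1 was lower, with a difference of -0.572 (adjusted p = 0.00461).

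The other large differences were in genes of varied function, most of them at a low level. Dgkg, a diacylglycerol kinase, was at 2.58 to 4.29 TPM by day and 0.996 to 1.12 at night (-1.53, SE 0.15, adjusted p = 0.00446). Neil2, a DNA repair glycosylase, was at 2.02 to 2.62 TPM by day and 0.579 to 0.916 at night (-1.57, SE 0.15, adjusted p = 0.00446). Slc17a4, an organic anion transporter (-1.37, adjusted p = 0.0214), and Clec2h, a lectin (-1.64, adjusted p = 0.0211), were lower. Clec2h was at a higher level than the others here, 36.25 to 63.65 TPM by day and 11.08 to 23.49 at night. Tnnc1, a troponin (1.39, adjusted p = 0.0291), Insc, a polarity protein (1.36, adjusted p = 0.0473, and 0.0626 with the block), and the histone gene Hist2h3c1 (1.31, adjusted p = 0.0132) were higher. Hist2h3c1 and Clec2h belong to families of close copies, so their values are uncertain. Without ZT8 replicate A the adjusted p was 0.0543 for Slc17a4, 0.0629 for Clec2h, 0.0851 for Tnnc1 and 0.111 for Insc.

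The night-day differences of the WT kidneys were set beside those of the Bmal1 KO kidneys of the same times. Among the 318 genes higher at night in WT, 271 had a positive difference in KO, with a median of 0.20 against 0.41 in WT. Among the 354 lower genes, 324 had a negative difference in KO, with a median of -0.21 against -0.43. The medians in WT come from the data that chose the genes, so the comparison of medians is a description. Without KO ZT4 replicate A the counts were 263 and 327 and the KO medians 0.18 and -0.24. In the KO libraries alone no gene was called by limma, and 1324 had an unadjusted p under 0.05.

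The difference between genotypes was itself tested in 1 fit of 16 libraries, and it was called for 1 gene (0.00783%), with 925 genes at an unadjusted p under 0.05. That gene was Cyp24a1. In KO it was at 22.1, 7.56, 11.3 and 26.1 TPM by day and 51.9, 60.5, 75.9 and 28.5 at night, a difference of 1.77 (SE 0.48) against -2.48 in WT. The KO minus WT difference was 4.26 log2 units (SE 0.54, adjusted p = 0.0282). All KO night libraries were above all KO day libraries, the reverse of WT. The call was absent, with no gene called, in fits with the replicate block, without any one WT library of ZT4 or ZT16, without replicate A of WT ZT8, WT ZT20 or KO ZT8, and without KO ZT16 replicate B. In the fit with a genotype by time factor 2 other genes were called and Cyp24a1 was not.

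Without KO ZT4 replicate A, 3 genes were called for the genotype difference. They included Cyp24a1 (4.44, adjusted p = 0.0128) and Cry1 (-2.54, adjusted p = 0.000144). Cry1 stood at 11.5 to 15.6 TPM in the other 7 KO libraries, above all 8 WT libraries. In the library left out it was at 1.04 TPM. With all 16 libraries the difference was -1.67 (SE 0.86, adjusted p = 0.723).

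The chaperone and fasting genes Hspa5, Igfbp1 and Depp1 were not called for a genotype difference. Only 1 of the 12768 genes tested was called, so a missing call does not show equal differences in WT and KO. Hspa5 was at 114 to 162 TPM by day and 189 to 318 at night in KO, a difference of 0.98 (SE 0.17) beside 1.11 in WT. Igfbp1 differed by -0.74 (SE 0.32) in KO beside -2.75 in WT, and Depp1 by -0.66 (SE 0.64) beside -2.50. The KO libraries of Depp1 overlapped between night and day. For these the genotype difference had an adjusted p of 0.949, 0.490 and 0.587. Without KO ZT4 replicate A the KO differences of Hspa5, Igfbp1 and Depp1 were 1.08, -0.59 and -0.84, and the genotype difference had an adjusted p of 0.989, 0.368 and 0.565. Npy, which encodes neuropeptide Y, differed by 0.651 in WT (adjusted p = 0.0150) and -0.59 in KO, with an adjusted p of 0.0608 for the difference of -1.24 (0.0826 without KO ZT4 replicate A), and its WT call was lost without ZT8 replicate A (0.0521). Dact2, a modulator of Wnt and TGF-β signalling, and Sec13, a vesicle coat protein, differed by -0.533 (adjusted p = 0.0152) and 0.290 (adjusted p = 0.0128) in WT and by 0.26 and -0.10 in KO. The genotype difference had an adjusted p of 0.257 for Dact2 and 0.261 for Sec13, and 0.219 and 0.193 without KO ZT4 replicate A, where the KO differences were 0.18 and -0.11.

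**Figure D5:**
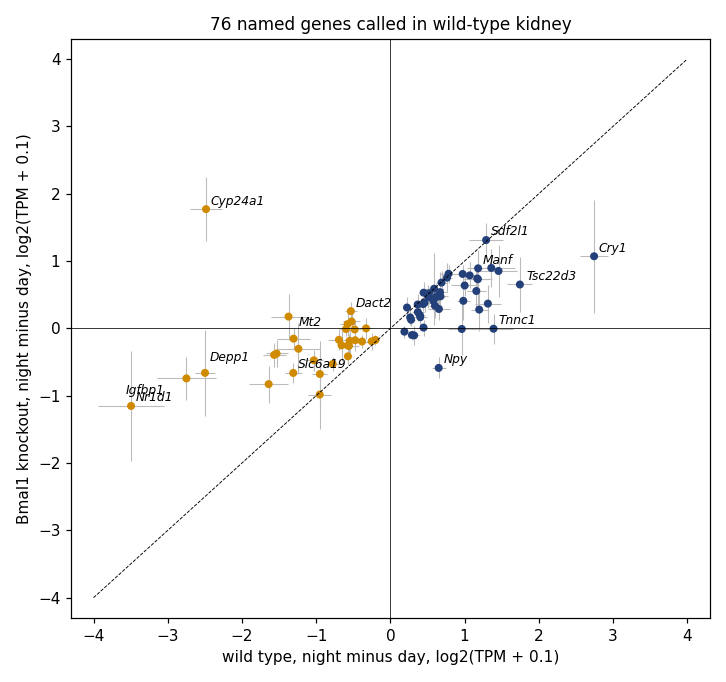
Night minus day difference in log2(TPM + 0.1) in WT (x axis) against KO (y axis), each point 1 of 76 genes taken by the naming rule and called in WT, with bars of 1 SE and a dashed line of equal values. Blue genes were higher and orange genes lower at night in WT, and the WT values chose the genes. Cyp24a1 lies at -2.48 in WT and 1.77 in KO, in the upper left, and Hyou1 and Manf lie near the diagonal at 0.97 and 0.81 and at 1.18 and 0.89.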

How the data were processed

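Kidney RNA-seq of 24 libraries was analysed as deposited; 20 4C-seq samples were not used here. The authors deposited TPM per transcript, estimated with kallisto 0.42.4, per the submitters' processing notes, which name mm10; the annotation release is not given in the sources used here. Of 88198 transcripts, 86119 matched GENCODE M21 and were summed per gene; 2079 did not match and were left out. TPM holds no depth, so precision rests on the 4 libraries per group. Genes averaging 1 TPM or more were tested on log2(TPM + 0.1) with limma 3.58.1 (R 4.3.3; trended, robust), night (ZT16, ZT20) minus day (ZT4, ZT8) without a block, with Benjamini-Hochberg adjustment over 12768 genes. Spread between the times of a group counts as error. The pairs of times came from a fit with 4 time levels, and genotypes were compared as an interaction over 16 libraries. Marker sums and the mitochondrial share were compared by exact permutation (scipy 1.17.1). On simulated data of 12768 genes, with 200 changed, the fit recovered 57.5% of changes of 0.5 log2 units and 87% of changes of 1. Of the calls, 4.96% and 5.95% were unchanged genes. The simulated noise was independent between genes and libraries and held no differences shared by replicate letter. These shares therefore may not hold for the real libraries.

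The labels do not say what the replicate letters A and B mark across times. The differences A minus B of any 2 times correlated across genes with r between 0.143 and 0.347. Along the axis of largest spread among the 8 libraries (25.9% of variance), all A libraries lay at 11.89 to 37.25. All B libraries lay at -43.82 to -13.18 on it. The main fit took no account of the letters, and an alternative fit took them as a block. Alternatives were other pseudocounts, filters, scalings, fits, the block and leaving out each library. Named genes were the 8 largest and 5 smallest-p protein-coding genes in each direction, all clock and cold-inducible genes, up to 3 per direction of each list (its highest gene where none passed), and the 5 with the smallest p between genotypes; 10 more were named after their values were seen, as were genes given only for contrast. The members and lists were chosen with earlier results of these data known. Promoter windows of 300 bases came from a RefSeq table on GRCm38.p6. A few results for single genes are not reported here, in the text or the figures.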

Additional observations from a re-analysis of the deposited data

Results flagged for a closer look

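Cyp24a1 had opposite night-day differences in the 2 genotypes, -2.48 log2 units in WT and 1.77 in KO, and the test of the difference gave 4.255 (limma, adjusted p = 0.02818). Over the genes examined singly, 9 of 232 groups of 4 held 1 library that stood apart from the other 3 by Dixon's criterion, which chance meets in about 1 in 20 groups. Among genes called, Wipi1 was at 9.094 TPM in ZT16 replicate A and 10.9 to 11.08 in the other night libraries. Scnn1g was at 13.89 TPM in ZT20 replicate A and 12.17 to 12.41 in the others. Jun was at 7.509 TPM in ZT20 replicate B against 7.937 to 7.968, and Junb at 4.09 in ZT20 replicate A against 4.729 to 4.749. Cyp4a32 was at 3.049 TPM in ZT8 replicate B against 1.438 to 1.637 in the other day libraries. Among genes not called, Atp5b was at 2297 TPM in ZT16 replicate B against 2491 to 2524, and Hlf at 36.13 in ZT20 replicate B against 48.08 to 50.39. Psmb4 was at 229.9 TPM in ZT8 replicate A against 239.7 to 241.1 by day, and at 262.0 in ZT16 replicate A against 235.9 to 238.4 at night.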

How the results depend on the processing

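The count of genes higher and lower at night was 318 and 354. With no filter on low values it was 134 and 156, with time as a factor of 4 levels the lower count was 599, and with the time factor on 12 WT libraries the counts were 662 and 842. Leaving out 1 library gave 40 to 246 and 47 to 284. With the replicate block 246 and 270 genes were called, of which 231 and 242 were among the main calls with the same sign, and the block changed no other call of a gene named in the text than those given with their values above. Genes with a different night-day change in KO numbered 1, and 2 with a pseudocount of 1, no filter, a minimum mean of 5 TPM, scaling by median ratios or a genotype by time factor; Cyp24a1 was not among the 2 of the last fit. The number was 0 with the replicate block and 0 to 4 on leaving out 1 library. Genes different at ZT16 and ZT4 numbered 160, and 329 in the fit on 12 WT libraries. The mitochondrial share differed by -0.82 to -1.36 percentage points on leaving out 1 library, with an exact p of 0.05714 each time, the smallest possible. The cause of these changes was not tested. Of 89 called genes examined singly, none reversed under 12 settings and 8 fits with 1 library left out; 32 kept the call in all 8, and 55 of the other 57 lost it without ZT8 replicate A. Scnn1a, Slc12a1, Agtr1a, Cdc73, Wdr12, Nolc1, Rpl7l1, Klf4, Cebpd, Pfkfb4, Cyp4a32 and Cyp2f2 lost the call whichever library was left out. Only 47 genes kept the call in every one of the 12 settings and 27 in these and the 8 fits together. Slc12a1 and Slc1a1 kept it in 6 of 12 settings, fewer than Hmox1. At least 1 setting ended the call of 42, with 32 lost with no filter, 27 in the genotype by time fit on 24 libraries and 19 with the block. The genotype by time fit ended the calls of Scnn1g, Slc12a1, Stk39, Agtr1a, Mas1, Klf2, Klf4, Atf4, Amd1, Ddit4 and Cebpd. It also ended those of Slc22a13, Slc1a1, Cyp4a32, Cyp2f2, Pfkfb4, Cdc73, Wdr12, Nolc1 and Rpl7l1, beside those given with their values in that fit. Depth is unknown and its limit cannot be given.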

Other observations

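Gm28580, an unprocessed pseudogene annotated on chromosome 1 (70067968 to 70068055, GRCm38), was listed at 0 TPM in all 4 day libraries and at 9.75 to 10.8 in all 4 night libraries. It was also at 8.31 TPM in 1 of the 2 WT ZT12 libraries and at 0 in the other and at ZT0. In KO it was at 0 in 5 of 8 libraries and at 9.81 to 10.7 in the other 3, of which 2 were day libraries. Its WT call was lost in the genotype by time fit on 24 libraries (adjusted p = 0.108). Ighm, the heavy chain of immunoglobulin M, was at 19.8, 56.0, 12.5 and 37.4 TPM by day and 3.39, 4.90, 3.64 and 4.38 at night in WT (-2.71 log2 units, limma adjusted p = 0.0235), and at 12.6 and 25.4 TPM in replicate B of ZT0 and ZT12 against 2.66 and 2.46 in replicate A. Umod, the main secreted protein of the thick ascending limb, was at 920 to 1097 TPM by day and 1236 to 1469 at night in WT (0.407, adjusted p = 0.0208), and its KO difference was -0.16 (SE 0.12), or -0.05 without KO ZT4 replicate A. The difference between genotypes was not called for Umod (adjusted p = 0.351, and 0.340 without that library). Leaving out ZT8 replicate B or either ZT16 library ended the call of both Umod (adjusted p 0.0525 to 0.0616) and Ighm (0.0573 to 0.0647), and leaving out ZT20 replicate A or B also ended that of Ighm (0.0625 and 0.0545).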
